A study of Mus musculus with 4 samples.

Results

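The genes described here are 10 members of the major histocompatibility complex (MHC) class I pathway, read as the rows H2-K1, H2-D1, H2-Q4, H2-Q7, H2-T23, B2m, Tap1, Tap2, Tapbp and Nlrc5 of the 30905 genes in the deposited matrix. All 10 were found, and the rule used the symbols and no measured value. They were measured by droplet-based single-cell RNA sequencing of transplanted mouse hearts, with counts of unique molecular identifiers (UMIs, each standing for 1 captured transcript 3′ end). Hearts of C57BL/6J or BALB/c donors were placed in the abdomen of C57BL/6J recipients and taken out on day 5, which gave 2 syngeneic grafts (donor strain C57BL/6J) and 2 allogeneic grafts (donor strain labelled Balb/C). The mice were males of 8 to 10 weeks, and the labels name no transgene or drug. A graft holds donor cells and cells that entered from the C57BL/6J recipient, so recipient cells carried the H-2b haplotype in all 4 grafts, and donor cells carried H-2b or, in BALB/c hearts, H-2d. The 53824 cells stand in 1 merged matrix whose barcodes end in 1 to 4. Neither the files nor the labels tie an ending to a graft, so the sets are called libraries 1 to 4, the donor groups were not compared, and no test or p-value could be given.

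MHC class I molecules show peptides from inside the cell to CD8 T cells and are the main targets of graft recognition by the recipient. A polymorphic heavy chain, encoded by H2-K1 or H2-D1, pairs with the light chain beta-2 microglobulin (B2m) in the endoplasmic reticulum. The transporter made of Tap1 and Tap2 brings in peptides that the proteasome has cut, and tapasin (Tapbp) holds the empty heavy chain at the transporter until a peptide binds. H2-Q4, H2-Q7 and H2-T23 encode non-classical heavy chains, of which H2-T23 (Qa-1) is a ligand of inhibitory receptors on NK cells. Nlrc5 is the transactivator of class I genes, and interferon gamma raises the whole set in most cell types.

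In GENCODE M21 on GRCm38, 8 of the members lie on chromosome 17 in or beside the MHC. H2-K1 (ENSMUSG00000061232, 33996017 to 34000347 on the minus strand) and Tapbp (ENSMUSG00000024308, 33915899 to 33929292 on the plus strand) lie at the K end, and Tap1 (ENSMUSG00000037321, 34187553 to 34197225 on the plus strand) and Tap2 (ENSMUSG00000024339, 34203527 to 34216321 on the plus strand) follow in the class II region. H2-D1 (ENSMUSG00000073411, 35262730 to 35267499 on the plus strand), H2-Q4 (ENSMUSG00000035929, 35379617 to 35385290 on the plus strand), H2-Q7 (ENSMUSG00000060550, 35439155 to 35443773 on the plus strand) and H2-T23 (ENSMUSG00000067212, 36029773 to 36032855 on the minus strand) lie in order towards the distal end. B2m (ENSMUSG00000060802, 122147686 to 122153083 on the plus strand) is on chromosome 2 and Nlrc5 (ENSMUSG00000074151, 94434356 to 94527272 on the plus strand) on chromosome 8. The reads were mapped by the authors to mm10, which is the C57BL/6J genome and holds the H-2b alleles. Reads from H-2d alleles of BALB/c donor cells had to match those H-2b genes to be counted, so for the heavy chains a difference in transcript level and a difference in how well an allele maps cannot be told apart. The heavy chain gene H2-L, which H-2d carries beside H2-D1, is not a row of the files and was not analysed here. Whether reads of H2-L were counted as H2-D1 in BALB/c donor cells was not tested. The members could also share reads with other genes. Windows of 100 bases were taken within the last 500 bases of annotated transcripts. The share also found in another gene was 6.48% for H2-Q4, 2.90% for H2-Q7 and 9.73% for H2-T23. It was 0 for the other 7 members. For H2-Q7 the other gene was H2-Q5, of the same family. For H2-Q4 the other genes were Gm43321, Olfr1238, Olfr552 and Gm8956, and for H2-T23 they were Rab33b and Hook2.

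Class I genes are known for a shared promoter layout, with an enhancer A that binds NF-kappa B, an interferon-stimulated response element and an SXY module through which Nlrc5 acts. RefSeq promoters of GRCm38.p6 were matched for 8 members, and Tap2 and Nlrc5 were not. The 5 sequences below are the heavy chain promoters that held 3 or 4 of these motifs and, beside them, that of B2m, the light chain. Each runs 5′ to 3′ on the gene's strand from 190 to 11 bases before the gene's start, in lower case, with capitals for matches on either strand of GGGGATT followed by any base and CCC (kappa B), TTTCNNTTC (interferon response), TGACG (as in the X2 box) and CCAAT (as in a Y box, which reads ATTGG on the other strand).
H2-K1, chr17:34000358-34000537, minus strand: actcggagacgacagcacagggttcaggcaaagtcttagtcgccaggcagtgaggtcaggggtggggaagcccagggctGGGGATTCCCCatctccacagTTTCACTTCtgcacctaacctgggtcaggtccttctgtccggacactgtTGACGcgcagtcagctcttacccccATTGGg
H2-D1, chr17:35262904-35263083, plus strand: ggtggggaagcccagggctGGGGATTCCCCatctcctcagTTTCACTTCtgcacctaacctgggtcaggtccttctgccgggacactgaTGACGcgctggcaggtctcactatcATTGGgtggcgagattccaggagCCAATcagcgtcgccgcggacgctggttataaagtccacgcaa
H2-Q4, chr17:35379427-35379606, plus strand: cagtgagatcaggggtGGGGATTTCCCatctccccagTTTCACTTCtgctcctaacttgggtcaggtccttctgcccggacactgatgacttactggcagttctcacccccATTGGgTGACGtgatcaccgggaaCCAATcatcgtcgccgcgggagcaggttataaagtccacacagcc
H2-Q7, chr17:35438965-35439144, plus strand: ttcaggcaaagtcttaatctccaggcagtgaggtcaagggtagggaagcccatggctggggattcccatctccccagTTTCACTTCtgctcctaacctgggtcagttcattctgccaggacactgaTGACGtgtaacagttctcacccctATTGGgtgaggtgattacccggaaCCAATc
B2m, chr2:122147497-122147676, plus strand: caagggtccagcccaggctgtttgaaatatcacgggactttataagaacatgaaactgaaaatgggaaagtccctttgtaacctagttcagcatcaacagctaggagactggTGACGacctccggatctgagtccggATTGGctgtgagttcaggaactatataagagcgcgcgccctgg

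In windows from 250 bases before to 50 after each start, the kappa B letters were found in 0.0761% of 32851 promoters, the interferon response letters in 7.52%, TGACG in 20.8% and CCAAT in 37.4%. All 4 occurred together in 4 promoters (0.0122%), which belong to H2-K1, H2-D1 and H2-Q4. The 3 genes carry the kappa B and the interferon response letters at the same spacing, 111 and 90 bases before the start in H2-K1, 171 and 150 in H2-D1, and 174 and 153 in H2-Q4. In H2-Q4 the printed TGACG lies after ATTGG, at 73 and 79 bases before the start. In H2-K1 (41 and 16 bases) and H2-D1 (101 and 76 bases) it lies before ATTGG, as it does in H2-Q7 and B2m. The TGACG of H2-Q4 is thus not at the same place in the layout. H2-Q7 lacked the exact kappa B letters and held the other 3 motifs. B2m and Tap1 each held TGACG and CCAAT, H2-T23 and Tapbp held CCAAT only. The matches overlapped no other match and are descriptions of letters, not of binding.

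After filtering, 42395 cells formed 26 clusters, of which 22 were named by marker genes into 12 classes and 4, with 4163 cells, stayed unnamed. The variable genes used for clustering left out 190 antigen presentation, MHC and interferon-response genes, so no member entered the clustering. Libraries held 9358 to 12496 kept cells with median depths of 4587 to 11880 UMIs per cell, and 308 barcode sequences occurred in more than 1 library (185 among kept cells). Of the 48 groups of a class and a library, 35 had at least 50 cells and were used. The libraries filled the classes with different clusters. Endothelial-like cells were nearly all of cluster 1 in libraries 1 and 3, of clusters 2 and 6 in library 2 and of cluster 21, led by Ubd, Gbp2b and Cxcl9, in library 4. Macrophage-like cells were mostly of cluster 11 in libraries 1 and 3, of cluster 16 in library 2 and of clusters 3 and 5 in library 4. Fibroblast-like cells were of clusters 7 and 9 in libraries 1 and 3 and of cluster 14 in libraries 2 and 4. Granulocyte-like cells were of cluster 4 in library 2 and of cluster 15 elsewhere. Pericyte-like cells also carried endothelial markers, whose sum was 2115 to 3767 CPM (UMIs of the genes per 1000000 non-mitochondrial UMIs) against 4077 to 7043 in endothelial-like cells, and the dendritic-like class had a median of 1209 UMIs in library 4. Both names are therefore less certain than the others.

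The summed level of the 10 members was highest in library 4 in the 5 stromal and myeloid classes that all 4 libraries held. Levels are in CPM, pooled over the cells of a group. Endothelial-like cells had 10097, 4403, 7349 and 25289.5 CPM in libraries 1 to 4, pericyte-like cells 6065, 2749.6, 4922 and 22537, and fibroblast-like cells 4419.7, 1008, 2407 and 19880. Macrophage-like cells had 7565, 2379.8, 6427 and 16368.5 and granulocyte-like cells 4376, 2525, 3946 and 19969. In each of these 5 classes library 4 was highest, library 1 next, then library 3, and library 2 lowest. T/NK-like cells had another order, with 11246, 6963, 10071 and 8346 CPM. In proportion to its value, the widest exact Poisson 95% interval among these sums was that of granulocyte-like cells of library 1, 4177 to 4581. All intervals given here cover counting error only and leave out any difference between grafts of a group, which these files do not give.

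Within libraries 1, 2 and 3, T/NK-like cells had the highest summed level, followed by endothelial-like cells, and smooth muscle-like cells (1411, 904 and 1229 CPM) stood near the bottom. In library 1 only cardiomyocyte-like cells, at 817 CPM, and erythroid-like cells, at 293, were lower. In these erythroid-like cells the erythroid markers (hemoglobin genes and Alas2) summed to 919519 CPM, which lowers the CPM of every other gene. Their summed level of the members is therefore not a background for the other classes. In library 4 the order differed, with endothelial-like and pericyte-like cells first and T/NK-like cells last of 8 classes, below B-like cells at 12091.5. Smooth muscle-like (11), cardiomyocyte-like (6) and erythroid-like cells (2) were too few in library 4 to be placed in that order. In medians over single cells of at least 1000 UMIs, T/NK-like cells of library 4 stood at 10621 CPM and B-like cells at 11939. Between neighbours in these orders, the intervals overlapped for dendritic-like and lymphatic-like and for fibroblast-like and granulocyte-like cells in library 1, for macrophage-like and B-like cells in library 3 and for granulocyte-like and fibroblast-like cells in library 4. No neighbours overlapped in library 2.

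**Figure D1:**
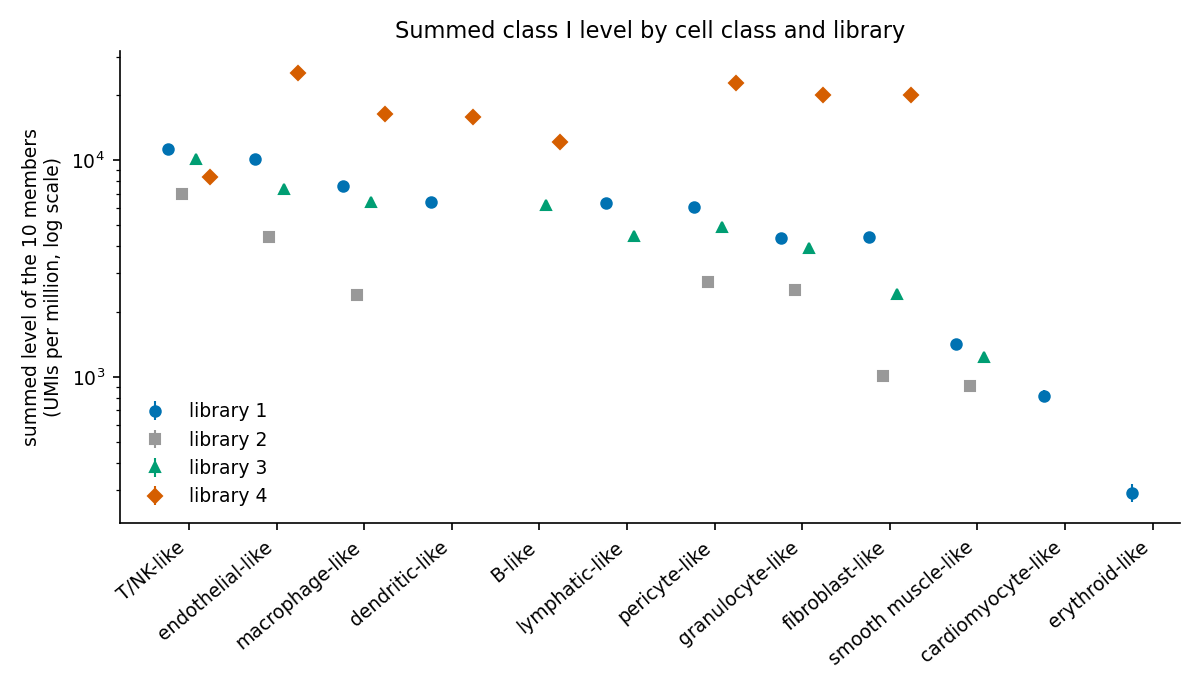
Summed level of the 10 members in CPM (log scale) for each cell class, with 1 point per library of at least 50 cells of the class and bars for exact Poisson 95% intervals, mostly smaller than the points. Library 4 lies above the other libraries in endothelial-like, macrophage-like, pericyte-like, granulocyte-like and fibroblast-like cells, at 16368.5 to 25289.5 CPM, and T/NK-like cells do not follow that order.

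The classical heavy chains H2-K1 and H2-D1 made up the larger share of the summed level in endothelial-like cells. H2-K1 stood at 2636, 1065, 1718 and 5028 CPM in endothelial-like cells of libraries 1 to 4. In fibroblast-like cells the H2-K1 level was 931, 215, 475 and 4457, and in macrophage-like cells it was 1740.4, 506, 1462 and 4194. Library 4 was the highest and library 2 the lowest in all 3 classes. T/NK-like cells differed less, with H2-K1 at 3418, 2176, 3017 and 2197, and library 4 was level with library 2 there, at intervals of 2177 to 2216 and 2071 to 2284. H2-D1 stood at 2936, 1639, 2226 and 9811 CPM in endothelial-like cells, so its level in library 4 was 3.34-fold that in library 1, against 1.91-fold for H2-K1. In macrophage-like cells H2-D1 had 2812, 1070.2, 2235 and 4259, which was the smallest difference of any member there (1.51-fold over library 1). Fibroblast-like cells had 1403, 388, 582 and 7368 CPM of H2-D1.

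B2m, the light chain of every class I molecule, is encoded outside the MHC on chromosome 2. Its levels were 2115, 1001, 1939 and 6182 CPM in endothelial-like, 1203, 293, 873 and 5021 in fibroblast-like and 2076, 571, 2029.8 and 4441 in macrophage-like cells. As for the heavy chains, library 4 stood apart above the rest and library 2 below. The B2m level of library 4 was 2.92-fold that of library 1 in endothelial-like cells and 4.17-fold in fibroblast-like cells. T/NK-like cells had 2399.6, 1494, 2409.7 and 2107 CPM and B2m differed between libraries 1, 3 and 4 there by less than 1.5-fold.

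Among the non-classical heavy chains, H2-Q7 had the widest range in macrophage-like and fibroblast-like cells. Its level in macrophage-like cells was 84.2, 23.5, 64.7 and 703 CPM, 29.9-fold from lowest to highest library. In fibroblast-like cells H2-Q7 ran from 2.83 in library 2 (59 UMIs) through 12.7 in library 3 and 25.4 in library 1 to 304 in library 4. T/NK-like cells had 1056, 565, 885 and 759 CPM of H2-Q7, the highest of any class in libraries 1 to 3. In library 4 they were not the highest, since dendritic-like cells had 826 and B-like cells 786. H2-Q4 behaved differently in endothelial-like cells, with 899, 241, 460.4 and 931, so that libraries 1 and 4 were 1.04-fold apart, with intervals of 886 to 911 and 909 to 952. In macrophage-like cells H2-Q4 stood at 146, 27.1, 92.8 and 321. H2-T23, the Qa-1 heavy chain, had 398, 82.8, 288 and 958 CPM in endothelial-like cells and 252, 18.7, 151 and 728 in fibroblast-like cells. Library 4 exceeded library 1 by 2.41-fold and 2.88-fold, which is less than for Tap1 in the same cells.

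The peptide loading genes followed the same order of libraries with unequal ranges. Tap1, a subunit of the peptide transporter, stood at 153, 31.5, 97.3 and 548 CPM in endothelial-like cells and at 45.9, 5.90, 33.1 and 405 in fibroblast-like cells. Macrophage-like cells had 108, 24.2, 78.3 and 612 CPM of Tap1. In T/NK-like cells Tap1, at 167, 84.3, 130.4 and 231, was the only member whose pooled level was higher in library 4 than in the other libraries. Tap2, the other subunit, ranged less, with 226, 103, 159 and 501 in endothelial-like and 72.1, 29.8, 57.8 and 302 in macrophage-like cells. Tapbp, the tapasin gene, had 360.2, 133, 242 and 761 CPM in endothelial-like, 205, 70.1, 181 and 632 in macrophage-like and 266, 53.0, 169.6 and 664 in fibroblast-like cells. In fibroblast-like cells its highest level was 12.5-fold its lowest, the smallest fold of the 10 members in that class.

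Nlrc5, the class I transactivator, was the lowest of the 10 members in UMIs and had the largest relative range in endothelial-like and fibroblast-like cells. It stood at 17.9, 2.69, 10.2 and 72.5 CPM in endothelial-like cells, with intervals of 16.2 to 19.7 in library 1 and 66.6 to 78.7 in library 4. In fibroblast-like cells Nlrc5 had 3.22, 0.288, 1.15 and 36.8, and the library 2 value rested on 6 UMIs (interval 0.106 to 0.627). Macrophage-like cells had 13.8, 5.08, 11.7 and 57.9 CPM. The highest Nlrc5 level of any class in libraries 1 to 3 was that of T/NK-like cells, at 51.4, 29.5 and 39.7, where library 4 had 37.1. Granulocyte-like cells of library 4 had 151 CPM, the highest Nlrc5 level in that library, against 9.60, 7.54 and 7.39 in the others.

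**Figure D2:**
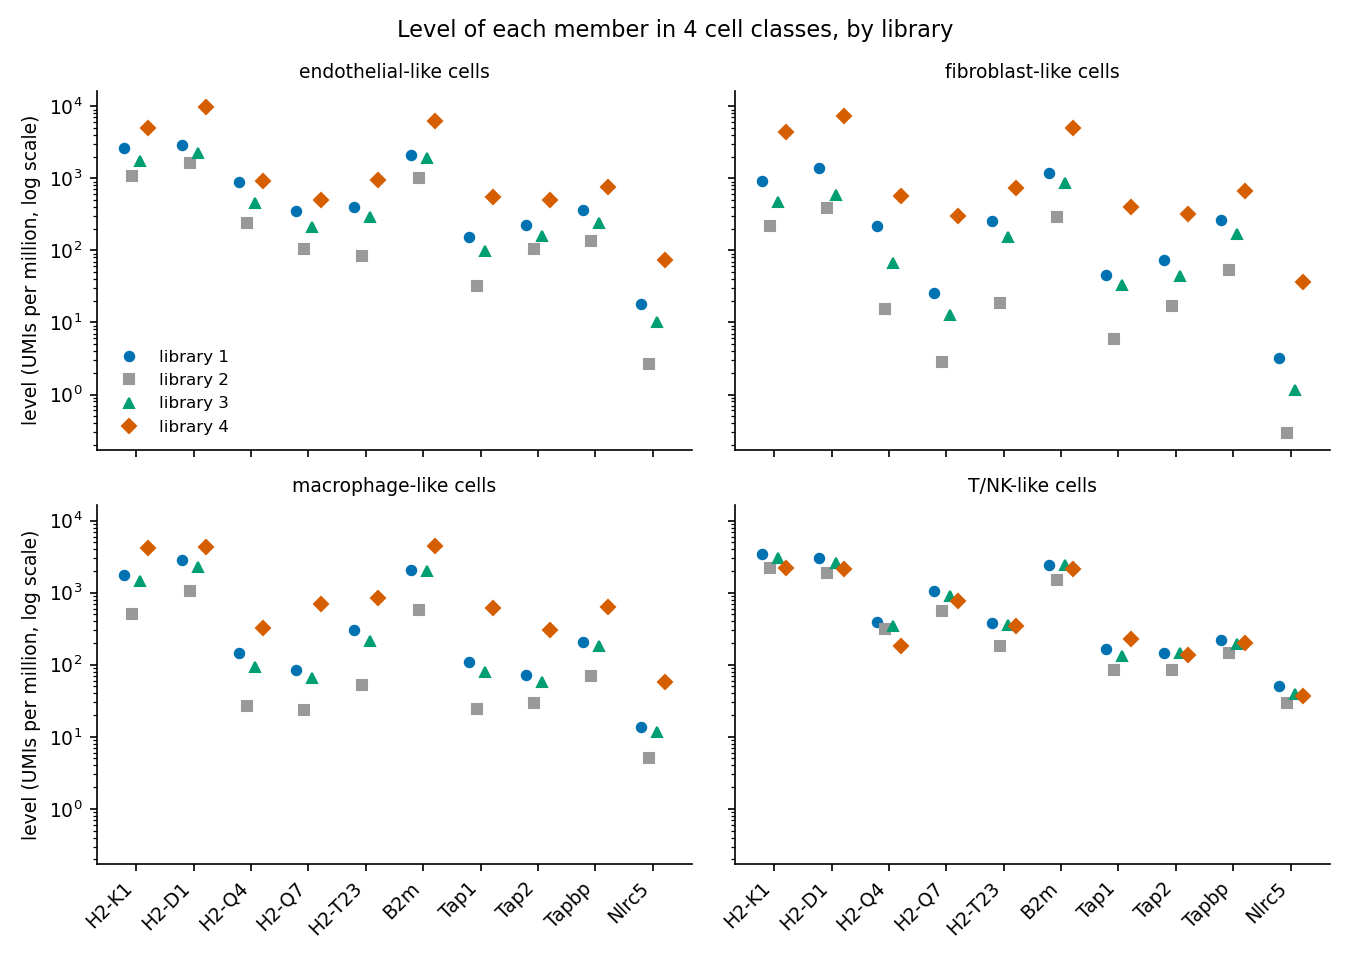
Level of each member in CPM (log scale) in endothelial-like, fibroblast-like, macrophage-like and T/NK-like cells, with 1 point per library. In the first 3 classes library 4 is highest and library 2 lowest for each of the 10 members, and in T/NK-like cells the points lie within 2.74-fold of each other.

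Counts of members against all genes show how common such differences were. In endothelial-like cells all 10 members differed at least 2-fold between the highest and the lowest library, against 31.8% of 8154 genes with at least 10 CPM. The median fold was 5.86 for the members and 1.63 for all genes, with members from 3.87 for H2-Q4 to 26.9 for Nlrc5. All 10 differed in macrophage-like cells (34.8% of genes), with a median of 10.8 against 1.68. In fibroblast-like cells, where 51.8% of genes passed 2-fold, all 10 members did so at a median of 28.9 against 2.04, with Nlrc5 under the minimum of 10 CPM. Pericyte-like cells gave 10 of 10 (37.6% of genes, median 7.74, Nlrc5 again under the minimum) and granulocyte-like cells 10 of 10 (65.5% of genes, median 14.7). In these 5 classes the highest level of each member was in library 4. The lowest was in library 2, except for Nlrc5 in granulocyte-like cells, where the order of the lower libraries was not resolved. Nlrc5 had 7.39 CPM there in library 3 (6 UMIs, interval 2.71 to 16.1) and 7.54 in library 2 (interval 6.04 to 9.30).

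The remaining classes differed less in the median, but only T/NK-like cells among them were compared over all 4 libraries. The folds of the others rest on fewer libraries and cannot be ranked against those above. In T/NK-like cells 3 of 10 members passed 2-fold (H2-Q4, H2-T23 and Tap1), against 50.2% of genes, and their median of 1.73 lay below that of all genes, 2.00. Smooth muscle-like cells, present in libraries 1 to 3, gave 5 of 10, or 4 of the 9 with at least 10 CPM (21.1% of genes), the fifth being Nlrc5 with 2 UMIs in library 2. Lymphatic-like cells of libraries 1 and 3 gave 0 of 10 (6.27% of genes), with folds of 1.08 to 1.71. B-like cells of libraries 3 and 4 gave 5 of 10 (19.1% of genes), among them Nlrc5 with 2 UMIs in library 3. Dendritic-like cells of libraries 1 and 4 gave 8 of 10 (20.3% of genes). In both classes all 10 were higher in library 4. In the dendritic-like class, markers of other cells were also higher in library 4 than in library 1, with fibroblast markers at 3088 against 333 CPM and macrophage markers at 4176 against 2129. In a finer clustering of the dendritic-like with the macrophage-like cells, 267 cells of library 4 fell in a dendritic-like subcluster, while the class held 1383. In that subcluster the summed level of the members was 15329 CPM in library 4 and 7285 in library 1.

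**Figure D3:**
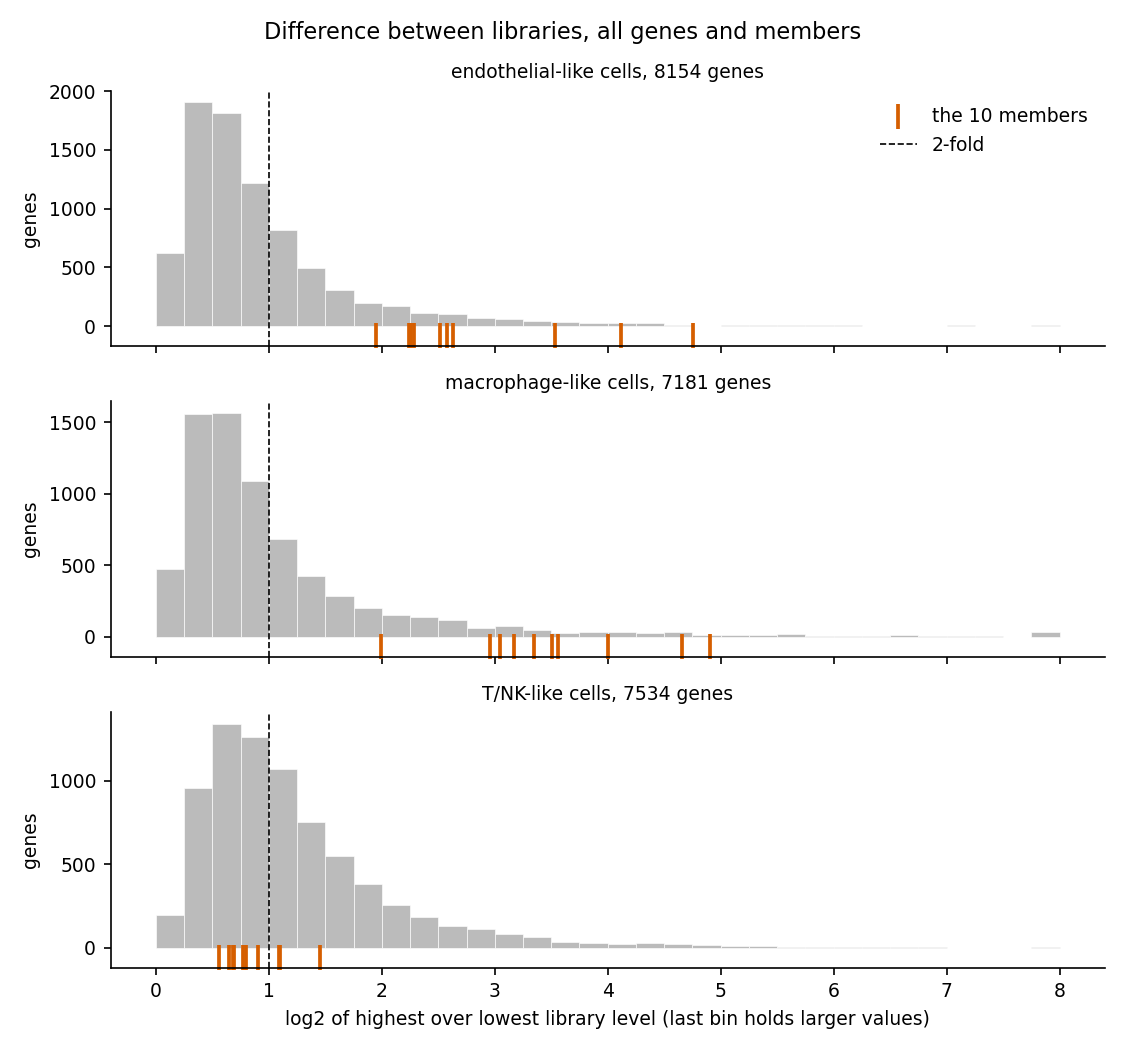
Number of genes (bars) by the log2 of the highest over the lowest library level in endothelial-like, macrophage-like and T/NK-like cells, with the 10 members as orange ticks and the 2-fold limit as a dashed line. The members lie in the upper tail in endothelial-like and macrophage-like cells, at medians of 5.86-fold and 10.8-fold, and within the bulk of genes in T/NK-like cells.

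Set against each other library, library 4 was at least 2-fold higher for 7 of 10 members over library 1 (7.63% of genes in that direction), 10 of 10 over library 2 (5.29%) and 10 of 10 over library 3 (5.41%) in endothelial-like cells. H2-K1 (1.91-fold), H2-Q7 (1.39-fold) and H2-Q4 (1.04-fold) were the members under 2-fold against library 1. In macrophage-like cells 9 of 10 passed over library 1 (7.76% of genes), 10 of 10 over library 2 (12.4%) and 9 of 10 over library 3 (8.81%), with H2-D1 as the exception. All 10 passed in fibroblast-like cells against library 1 (8.41% of genes), library 2 (12.3%) and library 3 (6.66%). These contrasts share library 4 and are not independent of each other. Markers of other cells moved with library 4 in the stromal classes. The summed level of the 8 macrophage markers in fibroblast-like cells was 815 CPM in library 4 against 74.0 to 147 in the others, and in endothelial-like cells 691 against 102 to 201. In library 2 the 6 granulocyte markers summed to 1834 CPM in endothelial-like cells and 5069 in macrophage-like cells, against at most 91.3 and 219 elsewhere. In pericyte-like cells of library 4 the macrophage markers summed to 908 CPM against 155 to 284, and in granulocyte-like cells the granulocyte markers were lowest there, at 43110.1 against 69809 to 194061. The part of these markers in the members' levels was not tested.

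T/NK-like cells of library 4 were the largest set of that class, with 1409 of 1867 cells, and their pooled level depended on a set of deep cells. The median over single cells of the summed level was 10916, 6457, 10409 and 10621 CPM in libraries 1 to 4, so the deficit of library 4 against library 1 in the pooled values (8346 against 11246) was not seen in the medians. A cycling subcluster of 364 cells with a median of 28759.5 UMIs per cell had the low summed level of 5831 CPM and weighed most in the pool. NK-like subclusters stood close together, with 12236 CPM in library 4 (interval 12093 to 12379.9) and 11828 in library 1 (interval 11564 to 12097). A subcluster of library 4 with markers of regulatory T cells had 12584 CPM, and one led by Ifng, Ccl3 and Zbtb32 had 6775. In libraries 1 and 3, 85 of 175 and 55 of 121 T/NK-like cells were in a subcluster led by hemoglobin genes, with 10619.6 and 10808.5 CPM. In library 2 the T/NK-like class was less pure. Its 8 T/NK markers summed to 1651 CPM against 4766 to 7147 elsewhere, and 156 of its 162 cells were in a subcluster led by Fabp4, S100a8 and Cd36.

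The ratio of H2-K1 to H2-D1 UMIs is given because its terms are polymorphic genes counted in the same cells. In endothelial-like cells it was 0.898, 0.650, 0.772 and 0.513 in libraries 1 to 4, and in pericyte-like cells 0.832, 0.626, 0.700 and 0.485. Library 4 was lowest in both, with intervals of 0.506 to 0.519 and 0.467 to 0.503. In macrophage-like cells the ratio ran the other way, at 0.619, 0.473, 0.654 and 0.985, with library 4 highest (interval 0.980 to 0.989). Granulocyte-like cells had 0.317, 0.258, 0.447 and 0.679, again with library 4 highest and with the lowest ratios of any class in libraries 1 to 3. T/NK-like cells stood above 1 in every library, at 1.13, 1.15, 1.18 and 1.02. Fibroblast-like cells had 0.664, 0.553, 0.816 and 0.605, so library 4 fell among the others. The highest ratio was at least 1.5-fold the lowest in 4 of 10 classes with 2 or more libraries, by 2.63-fold in granulocyte-like, 2.08-fold in macrophage-like, 1.75-fold in endothelial-like and 1.72-fold in pericyte-like cells. Fibroblast-like cells, at 1.48-fold, lay just under that limit. Without library 4 the count was 1 of 8 classes. B-like cells had 0.895 and 1.07 in libraries 3 and 4, dendritic-like cells 0.662 and 0.888 in libraries 1 and 4, and cardiomyocyte-like cells 0.961 in library 1. Whether the ratio reflects alleles, read mapping or transcription was not tested, and in donor cells of BALB/c hearts these cannot be told apart.

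**Figure D4:**
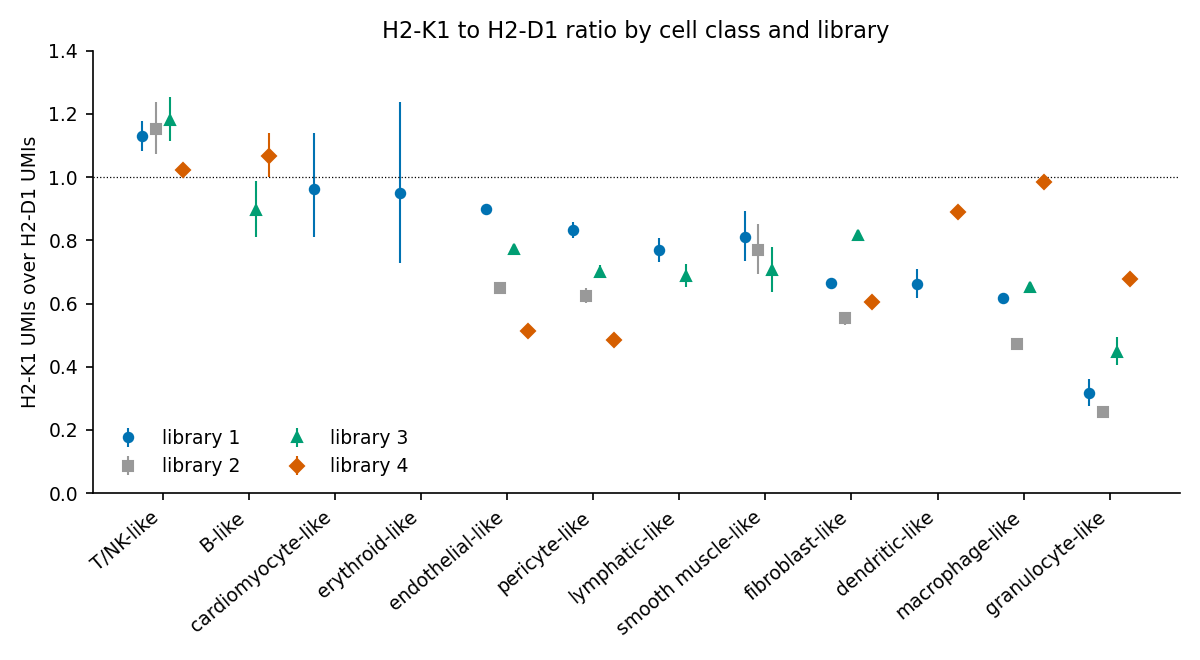
Ratio of H2-K1 to H2-D1 UMIs by cell class, with 1 point per library and bars for 95% intervals from the binomial split of their UMIs. Library 4 is lowest in endothelial-like (0.513) and pericyte-like (0.485) cells and highest in macrophage-like (0.985) and granulocyte-like (0.679) cells, and T/NK-like cells lie above 1 throughout.

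B2m, which lies outside the MHC, was taken as a second reference for the heavy chains. Its own level differed between libraries, and whether it is counted alike in both strains was not tested. H2-D1 over B2m in endothelial-like cells was 1.39, 1.64, 1.15 and 1.59 in libraries 1 to 4, so library 4 lay within the range of the others, whereas H2-K1 over B2m was 1.25, 1.06, 0.886 and 0.813, lowest in library 4. In macrophage-like cells H2-D1 over B2m was 1.35, 1.87, 1.10 and 0.959, lowest in library 4, and H2-K1 over B2m was 0.838, 0.886, 0.720 and 0.944, highest in library 4. H2-K1 was thus low against B2m in endothelial-like cells of library 4 and high in its macrophage-like cells.

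The non-classical genes of the Q region also changed in proportion. H2-Q7 over H2-Q4 was 2.74, 1.79, 2.60 and 4.19 in T/NK-like cells of libraries 1 to 4 and 0.396, 0.431, 0.453 and 0.534 in endothelial-like cells. Macrophage-like cells had 0.578, 0.865, 0.697 and 2.19, so that in library 4 H2-Q7 UMIs exceeded those of H2-Q4. H2-Q1, a neighbouring class I gene that is no member, was counted almost only in stromal cells of library 4, with 42 UMIs in endothelial-like (5.41 CPM), 73 in fibroblast-like (5.86) and 5 in pericyte-like cells (5.17). In the same library macrophage-like cells held 7 UMIs (0.0794 CPM) and T/NK-like cells 2 (0.0887). In libraries 1 to 3 every class held 0 to 2 H2-Q1 UMIs. The cells of library 4 thus differed by class in which Q genes were counted, and which strain those cells came from was not tested.

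Cardiomyocyte-like cells, the contractile cells of the heart, had low class I levels. Only 378 cells carried the name, 328 of them in library 1, with a median of 2730 UMIs. All 10 members were at least 2-fold higher in endothelial-like than in cardiomyocyte-like cells over all libraries, as were 55.3% of 8187 genes, so the count by itself sets them little apart. The folds ran from 2.52 for Nlrc5, on 8 cardiomyocyte-like UMIs, to 14.9 for H2-Q4. Within library 1 H2-K1 was 224 CPM in cardiomyocyte-like cells and 11.7-fold higher in endothelial-like cells, and B2m was 203 and 10.4-fold higher. In erythroid-like cells of library 1, where erythroid markers held most of the UMIs, H2-K1 was 78.0 and B2m 80.0 CPM. An unnamed cluster of 857 cells, with 7 of 7 cardiomyocyte markers but a median of 904 UMIs, had summed levels of 1606, 1486, 2721 and 9427 CPM in libraries 1 to 4, highest in library 4 as well. Its part in library 4 was 163 cells with a median of 818 UMIs. Whether transcripts of other cells entered that level was not tested.

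Other genes of the pathway were taken from a list of 33, of which 30 were in the matrix (H2-T10, H2-K2 and H2-Bl were not analysed here). The 5 immunoproteasome and activator genes Psmb8, Psmb9, Psmb10, Psme1 and Psme2, whose products form or activate the proteasome that cuts peptides for class I, passed 2-fold between libraries 5 of 5 in endothelial-like, macrophage-like, fibroblast-like, granulocyte-like, pericyte-like and T/NK-like cells, each highest in library 4. The shares of all genes that passed there were 31.8, 34.8, 51.8, 65.5, 37.6 and 50.2%. Psmb9 stood at 188, 32.2, 139 and 631 CPM in endothelial-like cells and at 239, 54.9, 215 and 366 in T/NK-like cells. In the pooled values of T/NK-like cells, library 4 was thus highest for these genes and for none of the 5 heavy chains. A cycling subcluster of 364 deep cells, with a summed level of 5831 CPM for the members, weighed most in that pool. Its part in this difference was not tested. Of 5 trimming and loading genes, 3 passed in endothelial-like cells (Erap1, which trims peptides, Calr and Tapbpl) and 2 in macrophage-like cells (Calr and Tapbpl), which is close to the 34.8% of all genes there. Calr, a chaperone of the loading complex and of other glycoproteins, had 448, 738, 463 and 1349 in endothelial-like cells, so library 2 was not lowest. Pdia3, which works beside tapasin, had 213, 191, 144 and 234.

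Among 12 other class I and class I-like genes, 5 had at least 10 CPM in endothelial-like cells and 6 in macrophage-like cells, and all of these passed, against 31.8 and 34.8% of all genes. The others, such as H2-Q1 and H2-Q2, were at a few UMIs in some libraries and are not counted. Their orders of libraries were not all alike. Fcgrt, which encodes the neonatal Fc receptor and pairs with B2m, was lowest in library 4 of endothelial-like cells, at 184, 47.4, 121 and 35.1 CPM. Hfe, an iron regulator that also pairs with B2m, had 48.9, 21.4, 49.1 and 19.8. H2-T22, a ligand of some gamma-delta T cells, followed the members with 183, 82.0, 149 and 389. H2-Q10, known as a liver-secreted class I gene, was counted at 343, 118, 166 and 194 CPM in granulocyte-like cells against at most 15.4 in endothelial-like cells.

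Among the regulators on the list, Irf1, Rfx5 and Ciita passed 2-fold between libraries in endothelial-like cells, and these and Irf2 in macrophage-like cells. Irf1, an interferon-induced factor that binds class I promoters, had 1143, 199, 678 and 739 CPM in endothelial-like cells and was highest in library 1. Ciita, the class II transactivator and of the same protein family as Nlrc5, had 1.24, 0.168, 0.941 and 47.4. The RFX subunit genes Rfxap and Rfxank, whose products belong to the complex on the X box, differed 1.46-fold and 1.15-fold between the highest and the lowest library of endothelial-like cells.

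Shares of cells with a UMI followed the levels. With each cell thinned to 1000 UMIs, B2m was found in 84.0, 57.2, 83.0 and 100% of endothelial-like cells of libraries 1 to 4 and in 9.85% of erythroid-like cells of library 1 (interval 6.12 to 14.8%). The unthinned B2m shares were 98.0, 77.8, 99.2 and 100% at median depths of 4547, 3764, 6762 and 8548 UMIs, against 34.0% at 7115 UMIs. Tap1 was found in 13.6, 3.52, 9.85 and 42.5% of thinned endothelial-like cells (46.8, 14.8, 49.9 and 88.4% unthinned) and in 0.985% of thinned erythroid-like cells. Nlrc5 was found in 2.13, 0.342, 1.49 and 9.58% of thinned endothelial-like cells (8.70, 1.58, 9.29 and 47.4% unthinned), while 0 of 203 thinned erythroid-like cells held it, which allows a share of up to 1.48%. That limit rests on the erythroid-like cells of library 1 alone, and the Nlrc5 share of endothelial-like cells of library 2 lay under it. Erythroid markers summed to 919519 CPM in those erythroid-like cells, so few of the 1000 UMIs were left for other genes. Shares in erythroid-like cells are therefore not matched in depth to those in endothelial-like cells and give no background. Of the endothelial-like cells, 3761 of 3852, 4380 of 5623, 3433 of 3456 and 668 of 673 had enough UMIs to be thinned.

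Over single cells of at least 1000 UMIs, library 4 differed from library 1 in most endothelial-like, fibroblast-like and macrophage-like cells rather than in a few. The libraries filled these classes with different clusters. A shift within a cell population and its replacement by other cells can therefore not be told apart here. In endothelial-like cells the median summed level was 9892, 4109, 7271 and 24786 CPM, and the 10th percentile of library 4, 16968, lay above the 90th percentile of library 1, 15061. In fibroblast-like cells the 10th percentile of library 4, 12857, likewise exceeded the 90th of library 1, 7629.7. In macrophage-like cells these values were 12726 and 12331. The 90th over the 10th percentile was 2.46, 5.40, 2.60 and 1.99 in endothelial-like cells, widest in library 2, whose cluster 6 had a median of 923 UMIs. T/NK-like cells were widest in library 4, at 4.31, against 2.34 to 2.91.

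**Figure D5:**
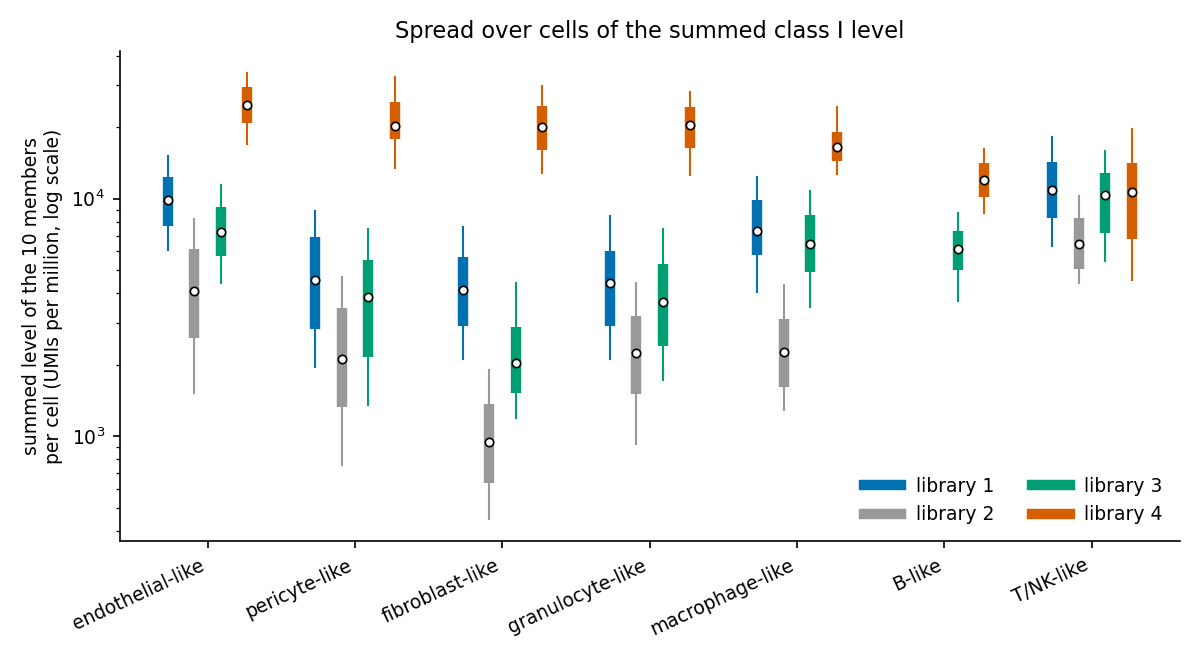
Summed level of the 10 members per cell in CPM (log scale) for cells of at least 1000 UMIs, by class and library, with circles for medians, thick bars for the 25th to 75th and thin lines for the 10th to 90th percentiles. Of the 7 classes shown, library 4 has the highest median in all but T/NK-like cells, where its median of 10621 falls between those of libraries 1 and 3 (10916 and 10409).

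Within a class and library, H2-K1 varied with its partners from cell to cell. Across 467 endothelial-like cells of library 4 its correlation was highest with H2-D1 among 3209 genes (r = 0.580), followed by H2-T23 and B2m. H2-D1 ranked first in 13 of 16 groups of a class and library, with r from 0.324 to 0.699, against medians over all genes between -0.0090 and 0.0224. The exceptions were macrophage-like cells of library 4 (H2-Q7), fibroblast-like cells of library 2 (Mgp) and pericyte-like cells of library 2 (Gpihbp1). In pericyte-like cells of library 1 the endothelial markers Gpihbp1 and Pecam1 stood closer to H2-K1 than B2m did, which ranked 7. In those of library 3 Rgcc, Ly6c1, Fabp4 and Cd36 followed H2-D1, and B2m ranked 16. These are correlations across cells that share a library, in cells of at least 5000 UMIs thinned to that number, and are descriptions. Among such thinned cells, those with an Nlrc5 UMI were set against those without for the other 9 members. Endothelial-like cells had 12479 against 9835 CPM in library 1 and 8735 against 7417 in library 3. In library 4 the values were 26404 and 26259 and their intervals overlapped. Macrophage-like cells had 7937 and 6776 in library 3 and 16834 and 16496 in library 4. In library 4, fibroblast-like cells had 21862 and 20842. T/NK-like cells of library 4 had 12076 and 9659.7, over subclusters whose summed levels ran from 5831 to 12584 CPM.

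Subclusters of endothelial-like cells differed within libraries 1 and 3 by less than those libraries differed from library 4. In endothelial-like cells of library 1, subcluster 3, led by Isg15 and Ifit1, had a summed level of 10635 CPM, and arterial-like cells had 8473. The same subclusters had 9067 and 6833 in library 3, and cycling cells there had 7167. H2-Q4 stood at 1043 CPM in subcluster 3 and 707 in arterial-like cells of library 1. In library 4, 650 of 673 cells were in 1 subcluster, led by Ubd and Cxcl9, with 25600.1 CPM. Subclusters of library 2 ran from 2574 (subcluster 10, led by Lyve1, Ccl21a and Selp) to 4874 (subcluster 6, led by Mgp and Igfbp4), apart from 125 cells led by hemoglobin genes at 1589. Among macrophage-like and dendritic-like cells of library 4, infiltrating-like cells had 16822, the next largest subcluster 16251, dendritic-like cells 15329 and cycling cells 13099.7. Higher levels stood in 259 cells led by Fabp4 and Cdh5 (20981 CPM, median 888 UMIs) and 253 cells with Col1a2 and Dcn among their leading genes (17617 CPM, median 1479 UMIs). The lowest level, 2129 CPM, was that of 59 cells led by hemoglobin genes. Resident-like macrophages of subcluster 3 had 7618 in library 1 and 6505 in library 3, and those of another subcluster, 10, had 3124 in library 2. Dendritic-like cells of the same subclustering stood at 6738 in library 3. In fibroblast-like cells of library 1, subclusters 1 and 5 had 4863 and 5029.6 CPM, against 2832 and 2201 in subclusters 2 and 4, a difference that was smaller in library 3 (2625, 3456, 2216 and 2256). Subcluster 6 had 4683 CPM in library 1 (300 cells) and 3265 in library 3 (182 cells).

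Across the 35 groups of a class and a library, each member was compared with all other genes by its levels. The likeness is Pearson's r of log2(level + 10) among 11292 genes, and the groups share libraries and cells, so it is a description only. B2m was the closest gene to H2-K1 (r = 0.975), H2-D1 (0.966), H2-T23 (0.945) and Tapbp (0.948). H2-Q7 was closest to H2-Q6 (0.965), its neighbour in the Q region, and Tap1 to Psmb9 (0.981), which is encoded beside it. H2-Q4 was closest to Gbp9 (0.915), Tap2 to Nmi (0.955) and Nlrc5 to Ifi47 (0.942). Of the 20 closest genes, 8 were members for H2-K1, 2 for H2-Q4 and 1 for Nlrc5.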

How the data were processed

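The authors made 10x Chromium Single Cell 3′ libraries and mapped them with Cell Ranger (version 3.0.0 in the matrix header) to mm10. CASAVA 1.8 and Seurat are also named in the submitters' notes. The deposited values are whole-number UMI counts in 1 merged matrix. From these counts, cells with over 200 genes and under 20% mitochondrial UMIs were kept, 5% of each library's cells most like simulated doublets were left out, and mitochondrial genes were dropped. Cells were clustered (2000 variable genes without 190 antigen presentation and interferon genes, 10 principal components, Leiden resolution 0.8) and named by listed markers enriched in them. Levels are pooled CPM (per 1000000 non-mitochondrial UMIs), with no scaling for gene length, since each UMI is 1 transcript end. Intervals are exact Poisson or Clopper-Pearson 95% intervals. The libraries could not be mapped to grafts, so no test was run. The named genes are the 10 members, a fixed list of 33 pathway genes and the genes leading a likeness ranking or cluster. Members and lists were chosen with earlier results of these data known. The steps were checked on simulated counts, where 10 of 12 classes were recovered and the pericyte-like and dendritic-like classes were not. Clustering used leidenalg 0.10.2 with igraph 0.11.9 and scikit-learn 1.9.0, and intervals scipy 1.17.1, under python 3.11.15, with numpy 2.4.6, pandas 2.3.3 and matplotlib 3.10.9. Alternatives changed the filters, doublets, clustering, weighting, depth, denominator, libraries and fold limit. Some results on genes outside the 10 members are not reported here.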

Additional observations from a re-analysis of the deposited data

Results flagged for a closer look

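The 9198 cells that the filter on genes and mitochondrial UMIs removed are outside every comparison above, and their summed level of the 10 members was 7947 CPM, above the 0.191 CPM that a count of 0 allows, a limit that a few UMIs of such abundant genes already pass. The summed levels of these removed cells were 5404 CPM in library 1, 3061 in library 2, 5433 in library 3 and 19628 in library 4, with library 4 highest as in the kept endothelial-like cells.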

How the results depend on the processing

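All 10 members differed at least 2-fold between libraries in endothelial-like cells under each alternative other than leaving out a library, where the count was 9 to 10 (9 without library 4). In macrophage-like cells it was likewise 10, and 9 to 10 with a library left out (9 without library 2). The count of members higher in endothelial-like than cardiomyocyte-like cells was 9 to 10 throughout. In the main setting 55.3% of 8187 genes passed that contrast. Between libraries, 31.8% of genes passed in endothelial-like and 34.8% in macrophage-like cells. Shares of all genes were not computed under the alternatives, so these counts do not set the members apart from other genes there. The count of classes whose H2-K1 to H2-D1 ratio differed 1.5-fold, 4 of 10, was 2 of 7 at Leiden resolution 0.4, 2 of 10 at a 2-fold limit and 1 to 4 with a library left out, lowest without library 4, where 8 classes could be compared, so it rests largely on that library. Of the single values recomputed, 223 of 223 ratios, 222 of 223 summed levels and 199 of 200 log2 differences between libraries 4 and 2 stayed within 1.5-fold, and 0 reversed. The exceptions were the summed level of T/NK-like cells of library 2 without abundant genes in the denominator (11014 CPM) and Nlrc5 in thinned endothelial-like cells (5.38 on the log2 scale). The cause was not tested. No paired analysis was possible because the barcodes carry no replicate number that the labels tie to a graft, and no test was run. Depth limits Nlrc5 most. Examples are 2 UMIs in B-like cells of library 3 and in smooth muscle-like cells of library 2, and 4 in granulocyte-like cells of library 1. Fibroblast-like cells of library 2 held 6 and cardiomyocyte-like cells 8.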

Other observations

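Of the unnamed clusters, 2 more were read for the members. Cluster 17, which came from library 2 alone and was led by Gm26870 and Cxcl5, had a summed level of the 10 members of 3725 CPM. Cluster 18, with endothelial genes and a median of 937 UMIs per cell, had 6193 CPM in library 1 and 5266 in library 3.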
